A study of Mus musculus with 6 samples.

Results

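Genes that cells switch on in answer to interferon were followed here in T cells of the mouse small intestine, the intraepithelial lymphocytes (IEL) lodged between gut epithelial cells. The list held 35 genes, 28 antiviral genes typical of the type I response and 7 GTPases typical of the response to interferon gamma. A gene was included when its symbol, alone or beside others, was the array annotation's name for a probe set, a group of short probes read as 1 value. In this way 29 genes had a probe set, 22 antiviral genes and 7 GTPases, of 8949 gene symbols on the array. Stat2, Oas1a, Oasl1, Oasl2, Bst2 and Xaf1 were not analysed here. The 29 genes were read by 35 of the 12422 probe sets that were not controls, and 29 of these 35, for 26 genes, were bright enough to be tested. Where a gene had several probe sets they are called brighter and dimmer, by their highest signal on any array.

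The study sorted 3 IEL subsets from freshly pooled, untreated C57BL/6 mice and hybridised each to an Affymetrix array. TCRab CD8ab cells carry an alpha-beta T cell receptor and the CD8 alpha-beta heterodimer, TCRab CD8aa cells the same kind of receptor with a CD8 alpha homodimer, and TCRgd CD8aa cells a gamma-delta receptor with the homodimer. Each of 2 experiments used its own pool of 20 mice below 8 weeks of age, and all 3 subsets came from that pool. There were 6 arrays, 2 per subset, so a replicate is a pool. For comparisons between subsets, p-values from fits without a term for the experiment measure the spread between pools and their handling. With that term, what the 3 subsets of an experiment share is taken out. Those p-values measure how far the subset differences varied between the 2 experiments. Neither kind measures the spread between mice. Cd3e, Cd8a and Itgae, which define CD8+ IEL, had signals of at least 1343, 6609 and 6999 on the 6 arrays. Cd8b1, the CD8 beta chain, read 17600 and 27600 in TCRab CD8ab and between 28.1 and 763 on the other arrays.

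Type I interferons signal through the receptor chains IFNAR1 and IFNAR2 to a DNA-binding complex that includes IRF9 and binds interferon-stimulated response elements (ISRE) at antiviral genes. Interferon gamma, made by activated T cells and natural killer cells, signals through IFNGR1 and IFNGR2 to gamma-activated sites (GAS) in its target genes, and it is the main inducer of the immunity-related and guanylate-binding GTPases that attack vacuoles holding intracellular pathogens. The target sets overlap. In the gut lining, IEL lie next to epithelial cells that both make and answer interferons.

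Many promoters of these genes, but not all, carry letters of the kind through which the 2 routes act. Those printed below all show the ISRE kind, and only Tgtp1 and Igtp show the GAS kind too. Each line is a stretch of the window from 250 bases before to 50 bases after the start site, read 5′ to 3′ on the strand of the gene, from RefSeq on build GRCm38.p6. Capitals mark an ISRE-type match, GAAANNGAAA on either strand, or a GAS-type match, TTCNNNGAA, which reads the same on both strands.
Isg15, chr4:156200860-156200911, minus strand: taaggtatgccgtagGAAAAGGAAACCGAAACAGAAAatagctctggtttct
Ifit1, chr19:34640770-34640828, plus strand: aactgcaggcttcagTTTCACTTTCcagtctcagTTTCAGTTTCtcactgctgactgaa
Ifit3, chr19:34583358-34583431, plus strand: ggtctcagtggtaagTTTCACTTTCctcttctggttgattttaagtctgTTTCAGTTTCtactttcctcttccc
Rsad2, chr12:26456548-26456587, minus strand: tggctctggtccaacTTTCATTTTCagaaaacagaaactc
Gbp2, chr3:142620589-142620628, plus strand: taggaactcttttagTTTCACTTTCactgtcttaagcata
Irgm1, chr11:48871420-48871465, minus strand: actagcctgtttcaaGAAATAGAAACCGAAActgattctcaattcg
Tgtp1, chr11:48992299-48992349, minus strand: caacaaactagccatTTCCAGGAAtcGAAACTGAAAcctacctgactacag
Igtp, chr11:58199496-58199546, plus strand: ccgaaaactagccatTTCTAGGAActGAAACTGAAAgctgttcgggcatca
The first 4 are antiviral genes and the last 4 are GTPases. Isg15 holds 3 overlapping ISRE-type matches in 1 run, while Ifit1 and Ifit3, neighbours in the IFIT cluster, each hold a pair that does not overlap. Tgtp1 and Igtp both carry a GAS-type match followed at once by an ISRE-type match, starting 88 and 77 bases before the start site in Tgtp1 and 45 and 34 bases before it in Igtp. Of the 23 members with both a probe set and a promoter entry, 15 (65.2%) held the ISRE-type letters and 8 (34.8%) the GAS-type letters. Over all 27025 genes of the promoter table these shares were 3.99% and 9.55%. By class, the ISRE-type letters were in 10 of 17 antiviral genes and 5 of 6 GTPases, and the GAS-type letters in 6 of 17 and 2 of 6. A match describes letters only and is not a measured binding site.

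Signals below are MAS5 units, a background-corrected brightness scaled to the same trimmed mean on every array. They are given as pairs, experiment 1 and then experiment 2. Signals under 15.3 were treated as the floor, and a level is never set against that of another probe set. As bulk samples, these cannot tell more cells that use a gene from more RNA per cell.

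Across the subsets, the antiviral effectors Mx1, Ifit1 and Ifit3 and the GTPase Iigp1 had their highest signals in TCRab CD8ab in both experiments, with no overlap with the other subsets. Irf9 and Trim30a did so too, with smaller gaps. The share of all probe sets without such overlap was not counted, so the lack of overlap has no background here. The looser order, TCRab CD8ab highest within each experiment, held in 15 of 35 member probe sets and in 14.7% of all. Isg15, Isg20, Ifih1 and Tgtp1/Tgtp2 also stood highest in TCRab CD8ab within each experiment, but their values overlapped between experiments. No member passed adjusted p under 0.05 in any comparison between subsets (limma with Benjamini-Hochberg adjustment), with or without a term for the experiment.

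Mx1 encodes a dynamin-like GTPase that restricts influenza-type viruses, although C57BL/6 mice carry a deletion in it that removes the working protein. Its signals were 117 and 205 in TCRab CD8ab, 39.3 and 7.4 in TCRab CD8aa, and 29.6 and 66.9 in TCRgd CD8aa. Both TCRab CD8ab arrays were above all the others, and the TCRab CD8aa array of experiment 2 was at the floor. The log2 difference of TCRab CD8aa from TCRab CD8ab was -2.66 ± 0.85 (SE, n = 2 arrays each, limma adjusted p = 1). In experiment 1, where both arrays were above the floor, it was -1.58, and with 1 array left out the fitted value ran from -3.84 to -1.49. With the experiment as a block, a term that takes out what the 3 arrays of an experiment share, the standard error was 0.78 and the limma adjusted p was 0.258. For TCRgd CD8aa against TCRab CD8ab the log2 difference was -1.80, with a limma adjusted p of 0.589 with the block. Its relative Mx2 read 48.3 and 142 in TCRab CD8ab, 44.9 and 23.4 in TCRab CD8aa, and 53.5 and 71.9 in TCRgd CD8aa. Only in experiment 2 did Mx2 stand apart in TCRab CD8ab, and its log2 difference from TCRab CD8aa was -1.35 ± 0.83 (SE without the block).

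The IFIT proteins bind viral RNA that lacks host cap marks. Ifit3 signals were 238 and 116 in TCRab CD8ab, 27.1 and 19.1 in TCRab CD8aa, and 72 and 14.7 in TCRgd CD8aa. The lower TCRab CD8ab array was above the highest of the 4 CD8aa arrays. The log2 difference of TCRab CD8aa from TCRab CD8ab was -2.87 ± 0.97 (SE; with the block, SE 0.73 and limma adjusted p = 0.168), a 7.31-fold lower mean. TCRgd CD8aa, whose array in experiment 2 was at the floor, differed from TCRab CD8ab by -2.33 (with the block limma adjusted p = 0.356), or by -1.73 in experiment 1, where both arrays were above the floor. With 1 array left out this value ran from -3.44 to -1.21. Ifit1 was too dim to be tested, at 50.1 and 91.7 in TCRab CD8ab against 5.9 and 18.9 in TCRab CD8aa and 6.8 and 24.6 in TCRgd CD8aa, the same order as Ifit3. Ifit2 read 202 and 324 in TCRab CD8ab, 135 and 281 in TCRab CD8aa, and 165 and 189 in TCRgd CD8aa, with overlapping values.

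Isg15 encodes a ubiquitin-like protein that is attached to other proteins, and Usp18 the enzyme that takes it off and damps the receptor. Isg15 read 784 and 420 in TCRab CD8ab, 517 and 129 in TCRab CD8aa, and 678 and 121 in TCRgd CD8aa. TCRab CD8ab was highest within each experiment, but every array of experiment 1 was above every array of experiment 2, so the subsets overlapped. The log2 difference of TCRgd CD8aa from TCRab CD8ab was -1.0, with a standard error of 1.04 without the block and 0.44 with it (limma adjusted p = 0.592 with the block), and it was 0.24 without TCRgd CD8aa replicate 2. Isg20, an exonuclease that degrades single-stranded RNA, had the same layout, at 1276 and 542, 814 and 176, and 941 and 267 in TCRab CD8ab, TCRab CD8aa and TCRgd CD8aa. Its log2 difference of TCRab CD8aa from TCRab CD8ab was -1.14 (SE 0.99 without and 0.36 with the block, limma adjusted p = 0.318 with it), and with 1 array left out it ran from -2.24 to -0.03. Usp18, untested, read between 9 and 39.3.

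**Figure D1:**
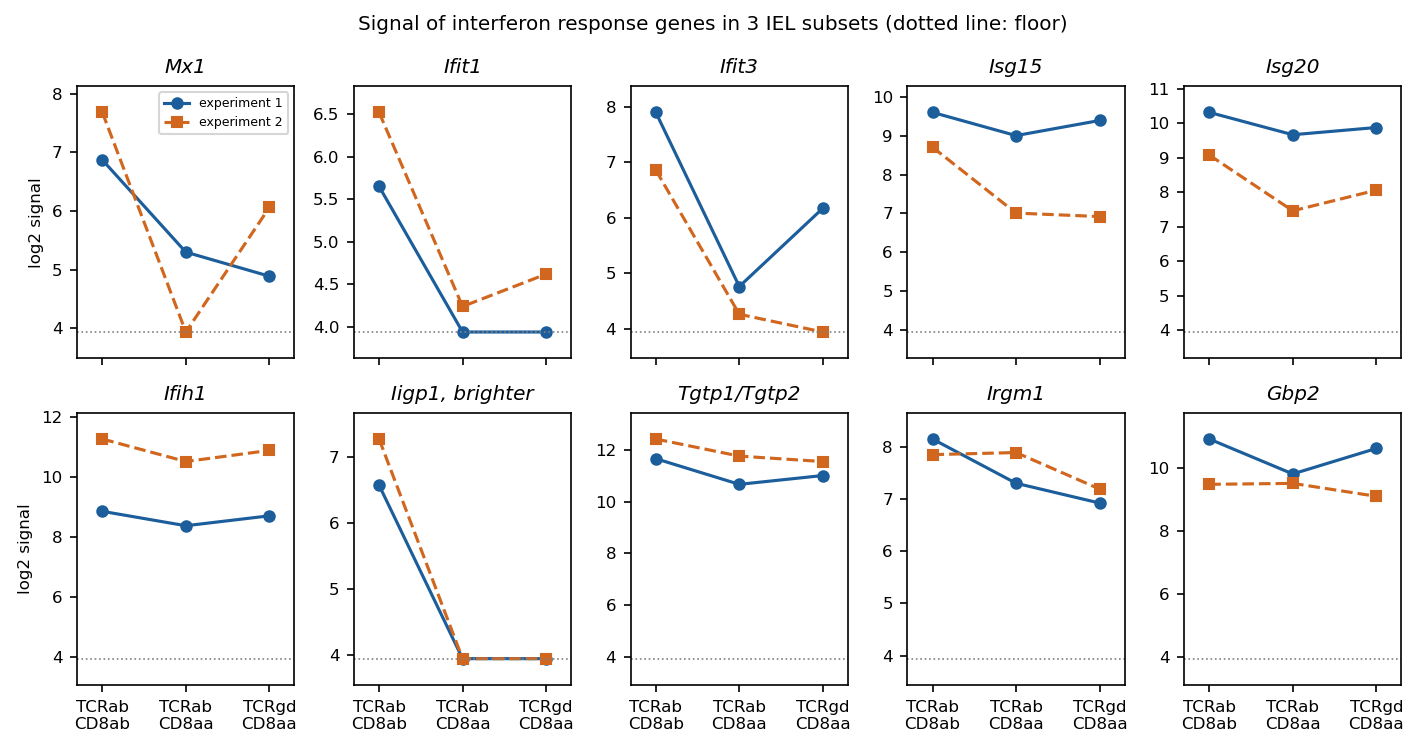
Log2 signal (vertical axis; scales differ between panels) of 10 interferon response genes in the 3 IEL subsets (horizontal axis), with 1 point per array joined within experiment 1 (circles) and experiment 2 (squares); the dotted line is the floor at log2 3.94. Mx1, Ifit1, Ifit3 and Iigp1 are highest in TCRab CD8ab in both experiments without overlap, Isg15 and Isg20 are lower in experiment 2 in every subset, and Ifih1 is higher.

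Rsad2 (viperin), which blocks viral replication and budding, read 200 and 402 in TCRab CD8ab, 178 and 241 in TCRab CD8aa, and 154 and 316 in TCRgd CD8aa. Among sensors of viral RNA, Ifih1 (MDA5) read 461 and 2444, 332 and 1461, and 415 and 1882 in the same order of subsets. The TCRab CD8ab array was the highest of its experiment for both genes, and TCRab CD8aa the lowest for Ifih1, yet the gap between experiments was wider than that between subsets. Eif2ak2 (PKR), the kinase that stops translation on double-stranded RNA, read between 31.1 and 75.7 with a different subset highest in each experiment. Adar, which edits double-stranded RNA, had a pair of probe sets that disagreed. On the dimmer one the TCRab CD8ab signals were 182 and 49.2 against 28.2 and 66.2 in TCRab CD8aa, highest in experiment 1 and lowest in experiment 2, and on the brighter one they were 471 and 259 against 422 and 165.

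Irf9, the DNA-binding subunit of the ISRE complex, was highest in TCRab CD8ab in both experiments with little difference in size, at 1472 and 1630 against 1112 and 1261 in TCRab CD8aa and 925 and 1222 in TCRgd CD8aa. Sp100, a nuclear body protein, was highest in TCRab CD8ab in both experiments on both of its probe sets. On the dimmer one it read 469 and 162 in TCRab CD8ab, 169 and 83.9 in TCRab CD8aa, and 293 and 87.6 in TCRgd CD8aa, a log2 difference of TCRab CD8aa from TCRab CD8ab of -1.22 ± 0.43 (SE with the block, limma adjusted p = 0.407). The ubiquitin ligase Trim30a (its brighter probe set) read 252 and 289, 221 and 190, and 189 and 132 in the same order of subsets, with both TCRab CD8ab arrays above all 4 others. Trim25, the ligase that activates the RNA sensor RIG-I, ranged only from 691 to 1342 with no order held between experiments.

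The p200 proteins sense DNA or act in the nucleus, and their genes are near-identical neighbours, so the probe sets cannot be assigned to 1 gene with certainty. The probe set shared by Mndal, Ifi211, Ifi205 and Ifi204 read 4357 and 1132 in TCRab CD8ab, 3128 and 1763 in TCRab CD8aa, and 3745 and 1550 in TCRgd CD8aa. TCRab CD8ab was highest in experiment 1 and lowest in experiment 2. That reversal also held for Ifi203 (with Ifi203-ps and LOC100862473), at 1100 and 1001 in TCRab CD8ab against 557 and 1853 in TCRab CD8aa and 749 and 1287 in TCRgd CD8aa, and for the second brightest of the 3 probe sets named for Ifi204 alone. Ifi35, a protein that binds other interferon-induced factors, was the only member probe set with TCRgd CD8aa highest in both experiments, at 1150 and 232 against 835 and 222 in TCRab CD8ab. Ifi27 ranged from 1376 to 2948. Ifitm3, which blocks virus entry at endosomes, was untested and read between 15.5 and 57.4.

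Among the GTPases, Iigp1 differed most between subsets. Iigp1 (IRGA6) loads onto pathogen vacuoles. On the brighter probe set its signals were 94.8 and 154 in TCRab CD8ab, 13.8 and 4.3 in TCRab CD8aa, and 10.1 and 13.7 in TCRgd CD8aa. All 4 CD8aa arrays were at the floor, so Iigp1 was at least 7.90-fold higher in TCRab CD8ab than in either CD8aa subset. The fitted log2 difference was -2.98 in each comparison (SE 0.83 without the block, limma adjusted p = 1), and limma adjusted p with the block was 0.241 for TCRab CD8aa and 0.286 for TCRgd CD8aa. Iigp1 was the only tested member above the brightness filter (56.4) on TCRab CD8ab arrays alone. Mx1 and Ifit3 were above it on both TCRab CD8ab arrays but on only 1 TCRgd CD8aa array each (66.9 and 72). As 2 arrays were needed, Iigp1, Mx1 and Ifit3 were tested only because of their TCRab CD8ab signals. Mx2, Eif2ak2 and the second brightest Ifi204 probe set needed 1 TCRab CD8ab array to pass. The dimmer Iigp1 probe set was untested and read 55.3 and 66.7 in TCRab CD8ab and between 9 and 35.3 on the other arrays.

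Tgtp1 and Tgtp2, near-identical T cell GTPases read by 1 probe set, had signals of 3246 and 5480 in TCRab CD8ab, 1624 and 3473 in TCRab CD8aa, and 2069 and 3007 in TCRgd CD8aa. TCRab CD8ab was highest within each experiment, with overlap between experiments. The log2 differences from TCRab CD8ab were -0.83 for TCRab CD8aa and -0.76 for TCRgd CD8aa (SE 0.29 with the block and 0.59 without it; limma adjusted p = 0.401 and 0.516 with the block). Irgm1, which keeps the other immunity-related GTPases from host membranes, was lowest in TCRgd CD8aa in both experiments, at 122 and 147 against 285 and 232 in TCRab CD8ab and 159 and 239 in TCRab CD8aa. The TCRgd CD8aa arrays lay below all 4 others, and the log2 difference from TCRab CD8ab was -0.94 ± 0.43 (SE with the block, limma adjusted p = 0.631).

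The other GTPases did not keep TCRab CD8ab on top. Igtp (IRGM3) hardly varied between subsets of an experiment, at 1937 and 588 in TCRab CD8ab, 1675 and 546 in TCRab CD8aa, and 1920 and 588 in TCRgd CD8aa. Gbp2 and Gbp3, guanylate-binding proteins that coat microbes, were highest in TCRab CD8ab in experiment 1 (1940 and 1728). In experiment 2 Gbp2 read 713 there against 728 in TCRab CD8aa, and Gbp3 read 1641 against 2209. Ifi47 (IRG-47) went the same way, from the highest of its experiment in TCRab CD8ab (3949) to the lowest (2908).

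**Figure D2:**
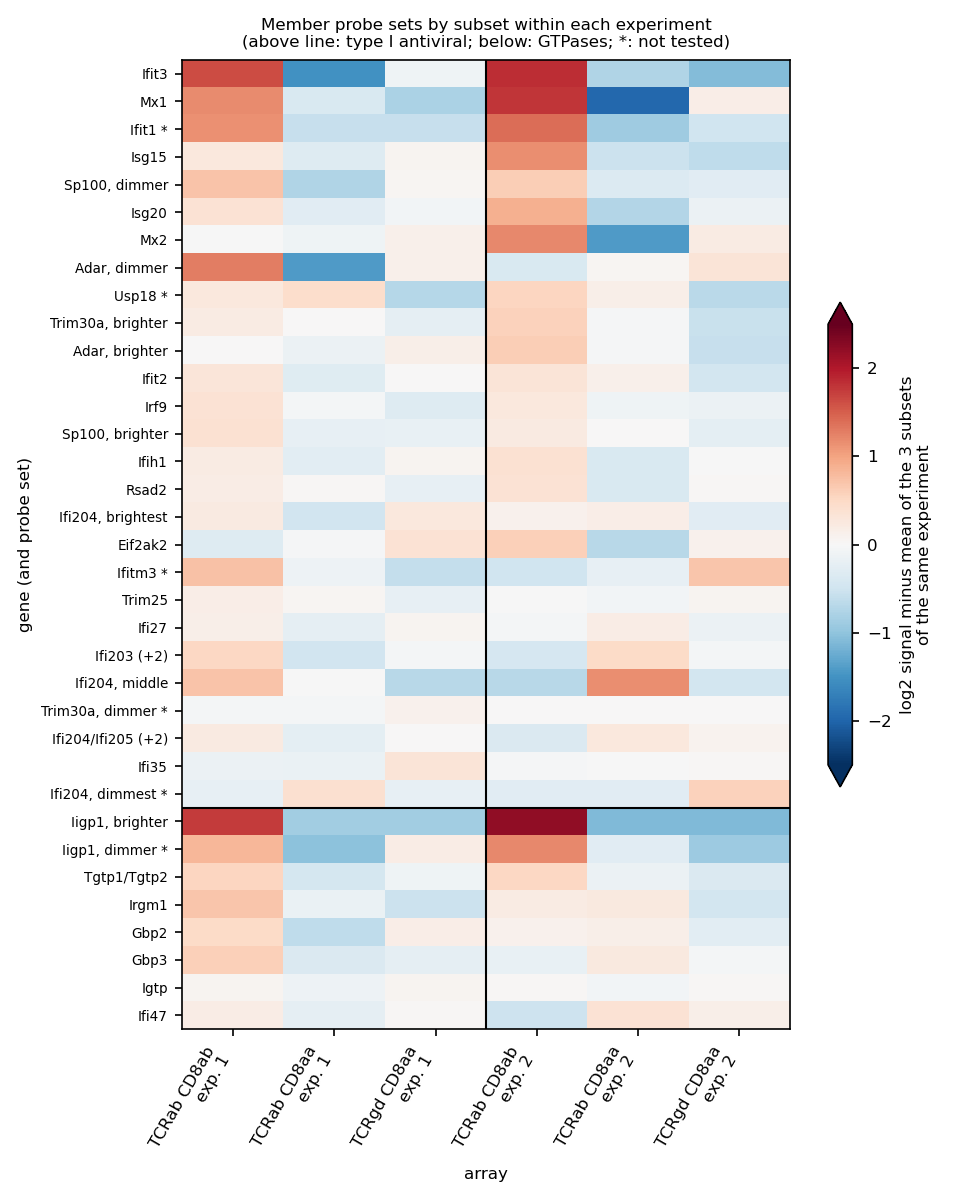
Rows are the 35 member probe sets and columns the 6 arrays, and the colour is the log2 signal minus the mean of the 3 subsets of the same experiment (red, above the mean; blue, below); the horizontal line parts the 27 antiviral from the 8 GTPase probe sets, and asterisks mark those not tested. The TCRab CD8ab columns are darkest red for Ifit3, Mx1, Ifit1 and Iigp1, and red in both columns means above the mean of the subsets, which is not always the highest.

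Over all 35 member probe sets, tested or not, TCRab CD8ab was highest in both experiments in 15, or 12 of 27 antiviral and 3 of 8 GTPase probe sets. Among all 12422 probe sets this order held in 14.7%. TCRab CD8ab was lowest in both experiments in 0 members, against 10.1% of all probe sets. TCRab CD8aa was highest in both in 0 (7.84% of all) and lowest in both in 5 (9.23%), namely Mx2, Isg20, Ifih1, Igtp and the dimmer Sp100 probe set. TCRgd CD8aa was highest in both in 1 (7.9%) and lowest in both in 4 (6.82%), namely Irf9, Trim30a, Usp18 and Irgm1. Several of the 35 share a gene or a family and are not independent.

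Paired within experiments, 19 member probe sets were lower in TCRab CD8aa than in TCRab CD8ab both times, 15 antiviral and 4 GTPase (24.7% of all probe sets), and 0 were higher both times (17.8%). TCRgd CD8aa was below TCRab CD8ab both times in 19, of which 14 were antiviral and 5 GTPase (22.9%), and above it in 1, Ifi35 (19.4%). The 2 comparisons share the TCRab CD8ab arrays. Between the CD8aa subsets, TCRgd CD8aa was higher both times in 8 members (21.1% of all) and lower in 5 (18.7%). With the floor at the 30th percentile or under quantile normalization, TCRab CD8ab was highest in both experiments in 15 and 14 members. The share of all probe sets was 13.1% in each setting.

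**Figure D3:**
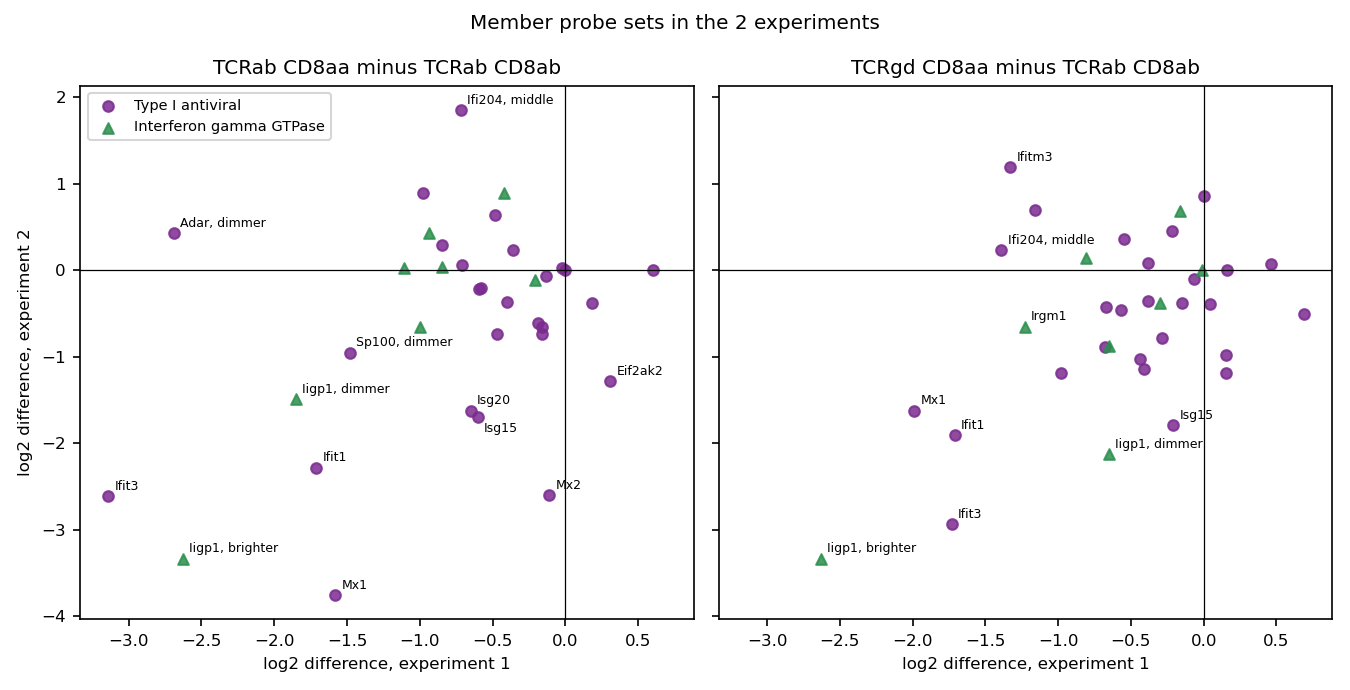
Each point is 1 of the 35 member probe sets (circles, antiviral; triangles, GTPases), with its log2 difference from TCRab CD8ab in experiment 1 on the horizontal and in experiment 2 on the vertical axis, for TCRab CD8aa (left) and TCRgd CD8aa (right). The lower left, lower than TCRab CD8ab both times, holds 19 probe sets in each panel, while the upper right holds 0 on the left and Ifi35 on the right.

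By size, the median log2 difference of TCRab CD8aa from TCRab CD8ab over genes with a tested probe set, 1 per gene, was -0.40 for 18 antiviral entries and -0.40 for 7 GTPases, against -0.08 over all 8299 tested probe sets. For TCRgd CD8aa from TCRab CD8ab the medians were -0.47 and -0.34, against -0.06. Between TCRgd CD8aa and TCRab CD8aa they were 0.06 and 0.02, against 0. In the single experiments, the GTPase median of TCRab CD8aa against TCRab CD8ab was -0.94 and then 0.03, while that of the antiviral genes was -0.44 and then -0.63. Over all tested probe sets it was 0.02 and then -0.20. Lower both times were 13 of the 18 antiviral entries and 3 of the 7 GTPases, against 2499 of all 8299 tested probe sets. For TCRgd CD8aa against TCRab CD8ab the GTPase median was -0.65 and then -0.38, and the antiviral median -0.33 and then -0.48.

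The tests give the frame for these sizes. For TCRab CD8aa against TCRab CD8ab, limma without the block called 0 of 8299 probe sets (0%) at adjusted p under 0.05, and 2.25% at unadjusted p under 0.05. Mx1, Ifit3 and Iigp1 were the 3 of 29 members under that unadjusted threshold. All 3 entered the test only through their TCRab CD8ab signals, so this count is not independent of the filter. With the block, 0.819% of all tested probe sets and 0 members were called. At unadjusted p under 0.05 the block gave 10.1% of all and 7 of 29 members. When the block was fitted on the TCRab arrays alone, Mx1 (limma adjusted p = 0.0409) and Ifit3 (0.0196) passed, among 169 of 8299 probe sets. There, each gene's own spread rests on 2 paired differences, moderated by the other probe sets. For Mx1 these differences were -1.58 and -3.75, the second with TCRab CD8aa at the floor. Blocked fits that left out 1 TCRgd CD8aa array rest on the same TCRab arrays for this comparison. They gave the same differences for Mx1 and Ifit3, so they are not separate support.

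For TCRgd CD8aa against TCRab CD8ab, limma called 0% without the block and 0.554% with it, and 0 members in either fit. At unadjusted p under 0.05 these shares were 2.02% (1 of 29 members, Iigp1) and 8.21% (5 of 29). Between the CD8aa subsets, 0% and 0.0241% were called at adjusted p, and 0.41% and 2.07% at unadjusted p, with 0 members at either. The largest member differences there were the second brightest Ifi204 probe set at -1.14, Mx2 at 0.94, the dimmer Adar probe set at 0.90 and Mx1 at 0.86 on the log2 scale, TCRgd CD8aa minus TCRab CD8aa, each with an adjusted p of 1 in limma with and without the block. Their standard errors with the block were 0.85, 0.76, 0.78 and 0.78.

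Members also differed between the 2 experiments, each of them 1 pool, so the p-values here do not measure the spread between pools. Of the 29 tested, 4 rose (13.8%) and 9 fell (31.0%) from experiment 1 to experiment 2 by limma with subset as a term, at adjusted p under 0.05. Over all tested probe sets 13.7% rose and 20.4% fell. The members' share that rose was close to the background.

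Ifih1 rose most, by 2.24 ± 0.25 (SE, log2; 3 arrays per experiment, limma adjusted p = 0.000358). Tgtp1/Tgtp2 rose by 0.80, and the brightest Ifi204 probe set rose by 0.98 (limma adjusted p = 0.029 and 0.03). Ifi35 fell by 2.03 ± 0.28 (limma adjusted p = 0.00087), from 823 to 1150 in experiment 1 to between 222 and 232 in experiment 2. Isg15, Isg20 and Igtp fell by 1.80, 1.75 and 1.68, each in all 3 subsets. The brighter Adar probe set fell by 1.47, the probe set shared by Mndal, Ifi211, Ifi205 and Ifi204 by 1.35, Gbp2 by 1.09 and Ifi27 by 0.81. Ifih1 and Isg15, both ISRE-type genes of the type I response, therefore went opposite ways.

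Sp100 showed the same split within 1 gene. The brighter probe set rose by 1.55 ± 0.24 (SE, log2, limma adjusted p = 0.00151), from 886 to 1332 in experiment 1 to between 2516 and 3467 in experiment 2. The dimmer probe set fell by 1.43 ± 0.35 (SE, log2, limma adjusted p = 0.0134). Both moved the same way in all 3 subsets, and both kept TCRab CD8ab highest. Without the brightness filter, 4 of the 13 members kept adjusted p under 0.05, Ifih1, Ifi35, Igtp and the brighter Sp100 probe set, and 506 of all 12422 probe sets passed. Without TCRgd CD8aa replicate 1 or replicate 2, 8 members passed, among 1988 or 1999 of all 8299 probe sets.

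**Figure D4:**
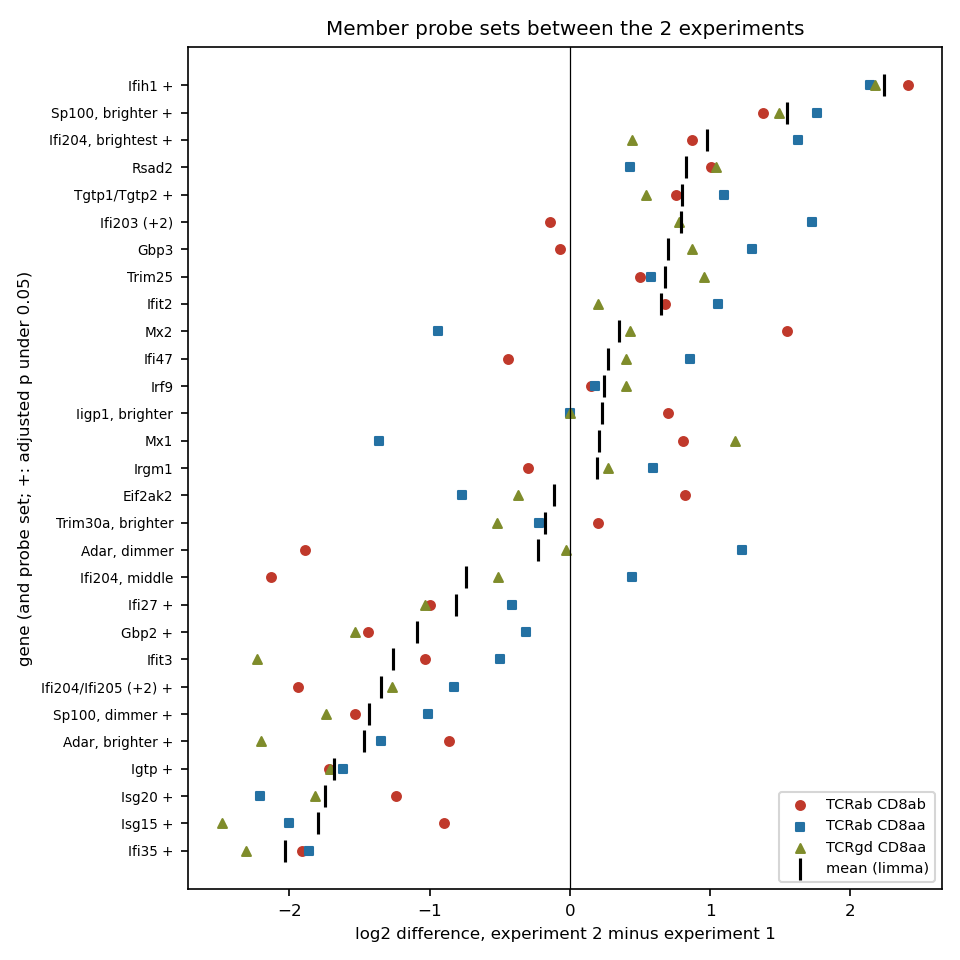
For each of the 29 tested member probe sets (rows), points are the log2 difference of experiment 2 minus experiment 1 in each subset and the bar is the mean fitted by limma; a plus sign marks adjusted p under 0.05. Ifih1 and the brighter Sp100 probe set lie to the right in all 3 subsets, Ifi35, Isg15, Isg20 and Igtp to the left, and Mx1, Mx2 and Iigp1 differ in direction or size between subsets.

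RNA measures moved with the experiment. The ratio of 3′ to 5′ probe signal, which grows as RNA is shortened, was 1.41 to 1.76 for Actb in experiment 1 and 40.4 to 52.2 in experiment 2, and 3.38 to 5.2 against 22.3 to 29.6 for Gapdh. The pool of mice, the occasion and this ratio cannot be told apart. Arrays correlated with r of 0.874 to 0.964 within an experiment and 0.771 to 0.837 within a subset, across probe sets, which are not independent. In experiment 1 the Gapdh ratio was 5.2 in TCRab CD8aa, 3.58 in TCRab CD8ab and 3.38 in TCRgd CD8aa.

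Other cell types were checked by the summed signal of fixed marker lists. The 12 enterocyte genes summed to 29494 in the TCRgd CD8aa array of experiment 2 and to between 1198 and 3010 on the others, and the 4 goblet and Paneth genes to 3753 against 256 to 491. The 6 B and plasma cell genes summed to 5455 on that array, 1321 and 1281 in TCRab CD8ab, and 744 to 973 on the rest, with 0 to 2 genes at the floor. The 10 macrophage, dendritic cell and granulocyte genes summed to 1249 and 1553 in TCRab CD8ab and between 1041 and 2826 elsewhere. Itgax was the largest part of each sum, at 682 and 731 in TCRab CD8ab and between 625 and 2233 elsewhere. Between 2 and 5 of these 10 genes were at the floor on each array. The 8 stromal genes summed to between 805 and 1460, highest in TCRab CD8ab of experiment 2. The 3 erythroid genes were also highest there (263 against 73.8 to 138). The part of B cell signal in the TCRab CD8ab levels, and of epithelial signal in the TCRgd CD8aa levels, was not tested.

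Beside the members, 6 lists of pathway genes, from ligands to further targets, held 0 genes called in any comparison between subsets, with or without the block. Ifng, the interferon gamma gene, had the smallest p among them for TCRab CD8aa against TCRab CD8ab. Its signals were 607 and 2955 in TCRab CD8ab, 149 and 575 in TCRab CD8aa, and 193 and 2284 in TCRgd CD8aa. TCRab CD8ab was highest and TCRab CD8aa lowest both times. The log2 difference was -2.20, with SE 1.38 and limma adjusted p = 1 without the block, and SE 0.42 and adjusted p = 0.0559 with it. With 1 array left out it ran from -3.34 to -1.05. It passed in the blocked fit of the TCRab arrays alone (limma adjusted p = 8.04e-05), where its own spread rests on only 2 paired differences. It also passed under a filter at the 60th percentile with the block (limma adjusted p = 0.0324). Blocked fits without 1 TCRgd CD8aa array rest on the same TCRab arrays and gave the same difference, so they are not separate support. Between the CD8aa subsets its log2 difference was 1.18, and 1.91 with the block without TCRgd CD8aa replicate 1, which leaves 1 array in that subset.

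All 5 receptor genes with a probe set were tested, and 0 were called between subsets. Ifnar1 read 1013 and 532 in TCRab CD8ab, 512 and 390 in TCRab CD8aa, and 533 and 313 in TCRgd CD8aa. Ifnar2 was also highest in TCRab CD8ab both times, at 298 and 370 on the dimmer of its probe sets against 129 to 185 on the other arrays, and at 485 and 380 on the brighter one against 171 to 272. Ifngr1 ranged from 1434 to 4390 and was lower in experiment 2 in every subset. Ifngr2 read 508 in TCRab CD8ab of experiment 1 and between 9.1 and 66.8 elsewhere, so it rests on 1 array. Il10rb, shared with the interleukin 10 and interferon lambda receptors, ranged from 1209 to 5950.

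The other lists held 11 ligand genes with a probe set including Ifng (6 tested), 7 signalling genes, 7 brakes, 5 sensing genes (4 tested) and 14 further interferon gamma targets (13 tested). By p with the block, their foremost genes besides Ifng were Psmb8, an immunoproteasome subunit (log2 difference of TCRab CD8aa from TCRab CD8ab -0.85 ± 0.29, limma adjusted p = 0.384), and, for TCRgd CD8aa from TCRab CD8ab, the receptor kinase Jak2 (its dimmer probe set, -1.38 ± 0.43, 0.346) and the proteasome activator Psme1 (-1.05 ± 0.36, 0.443), with SE and adjusted p from the blocked fit. Without TCRgd CD8aa replicate 2, or without TCRab CD8ab replicate 1, the unblocked Psme1 difference was 0.93 or 0.35. Between the CD8aa subsets, that Jak2 probe set stood at -1.09 (TCRgd CD8aa minus TCRab CD8aa, limma adjusted p = 1 with the block). The brighter Jak2 probe set stood at 0.07 and 0.06 in these comparisons. The median log2 difference of TCRab CD8aa from TCRab CD8ab was -0.8 for the 6 receptor probe sets and -0.41 for the 15 further targets, -0.08 for the signalling and the sensing genes, 0.19 for the brakes and 0.5 for the ligands. The ligand median rests on interferon alpha and beta probe sets with signals of at most 175, while Ifng stood at -2.2. Ifnar2 entered the receptor median with both probe sets. Ifngr1 and Il10rb stood at 0.35 and 0.42, and the other receptor probe sets were lower in TCRab CD8aa.

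The ISRE-type letters occurred in members of either subset order. Of the 11 genes with a promoter entry whose brightest probe set was highest in TCRab CD8ab both times, 7 held them and 4 did not, and of the other 12 genes 8 held them and 4 did not. Ifit1, Ifit3, Isg15 and Rsad2 are among the 7, and Gbp2, Irgm1 and Igtp, printed above, among the 8.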

How the data were processed

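Messenger RNA of 3 sorted IEL subsets was measured on 6 arrays, 2 per subset, 1 from each experiment. The authors deposited MAS5 signal intensity per probe set on a linear scale, per the submitters' processing notes, which give no version. The trimmed mean, 2% left out at each end, was 500.4 on every array. The arrays were scaled to it over all 12488 probe sets and values below the 20th percentile (15.3) set to it before log2 was taken. Probe sets with at least 2 arrays above the 40th percentile (56.4) were tested, 8299 of 12422. Detection calls were not used. The number of arrays limits the precision. limma 3.58.1 in R 4.3.3, with the intensity trend and Benjamini-Hochberg adjustment, was fitted on all 6 arrays and tested on simulated data. SEs are moderated, and shared by the 3 comparisons.

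Subsets of an experiment came from 1 pool, per the series' design text, so the replicate number pairs the arrays. Their deviations from the subset means correlated at 0.618, 0.603 and 0.713, and the blocked fit is given beside the unblocked one.

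Per comparison, the members named with SE and p were the 6 with the smallest p in each fit and those called, with the 2 foremost pathway genes and any called. Receptor levels are given whole. The members and lists were chosen with earlier results of these data known. Of the probe sets, 10833 carried 1 symbol, 396 several and 1193 none. Motifs were searched in the RefSeq promoter table. Other scalings, floors, filters and fits, and each array left out in turn, were tried as alternatives. The counts of subset order under other scalings and floors were chosen after seeing the data.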

Additional observations from a re-analysis of the deposited data

How the results depend on the processing

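In all but 3 of the 93 settings tried for the comparisons between subsets, 0 members were called. The exceptions were all for TCRab CD8aa against TCRab CD8ab with the replicate block. They were the fit of the TCRab arrays alone, with 2 members, and the fits leaving out 1 TCRgd CD8aa array, which rest on the same TCRab arrays. Of 844 values of the 28 named gene comparisons, 824 kept direction and call, 9 newly passed and 11 turned direction. With all arrays of the compared subsets kept, the block, trend, filter and choice of subsets can change a call but not a difference. The turned values came when 1 array was left out, TCRgd CD8aa replicate 2 (Isg15, Psme1, Ifih1, Ifng) or 1 (Isg20), TCRab CD8aa replicate 1 (Ifih1; Adar with the block) or 2 (Isg20; Mx1 and Mx2 with the block), or TCRab CD8ab replicate 1 (Psme1). For TCRgd CD8aa minus TCRab CD8ab they ranged from -3.04 to 0.93 for Psme1 and from -2.24 to 0.24 for Isg15. For TCRgd CD8aa minus TCRab CD8aa they ranged from -0.75 to 1.43 for Ifih1, -0.70 to 1.51 for Isg20, -0.60 to 2.97 for Ifng, -0.19 to 2.0 for Adar, -0.03 to 1.9 for Mx2 and -0.32 to 2.04 for Mx1. With 1 array left out, the antiviral median ranged from -0.61 to -0.40 for TCRab CD8aa and from -0.58 to -0.47 for TCRgd CD8aa, both minus TCRab CD8ab, and from 0 to 0.38 between the CD8aa subsets. The GTPase medians ranged from -0.70 to -0.22 for TCRab CD8aa minus TCRab CD8ab, from -0.87 to -0.30 for TCRgd CD8aa minus TCRab CD8ab and from -0.41 to 0.05 between the CD8aa subsets. The replicate block cannot change these medians, because each subset has 1 array in each experiment. Between experiments, the 13 members called became 4 with no filter, where 12422 probe sets shared the adjustment, and 8 to 14 with 1 array left out. The count over all probe sets moved too, to 506 with no filter and to between 1880 and 2941 with 1 array left out. Of 544 values of the 39 member and pathway probe sets called there, 0 turned direction and 93 lost the call. The cause was not tested.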

Other observations

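Interferon pathway genes outside the members also differed between the experiments, again 1 pool each, by limma with subset as a term. Of the signalling probe sets 2 of 10 rose and 6 fell, and of the brakes 0 rose and 5 of 10 fell. Of the further interferon gamma targets 2 of 15 rose and 6 fell. Among the ligands 1 of 7 rose and 0 fell, among the receptors 1 of 6 rose and 2 fell. Among the sensing genes 0 of 5 rose and 3 fell. Over all probe sets these shares were 13.7% and 20.4%. Irf1 and Socs1, which both fell, are each counted in more than 1 of these lists. Irf7, the factor that amplifies type I interferon, fell by 3.34 on the log2 scale (the brighter probe set, limma adjusted p = 0.000564; the dimmer one stood at 0.06, adjusted p = 0.917), and the kinase Tyk2 fell by 3.07 (limma adjusted p = 0.00221). Socs1, an inhibitor of JAK kinases, fell by 2.95 (0.000764). Ifng rose by 2.60 (0.000749) while its receptor chain Ifngr1 fell by 1.16 (0.00674). Tapbp, which loads MHC class I, had probe sets that went opposite ways, as in Sp100. The dimmest fell by 1.95 and a brighter one rose by 1.03. The brightest was not called, but was higher in experiment 2 in every subset. It read 4365 to 6425 in experiment 1 and 7031 to 12903 in experiment 2. The 3′ to 5′ ratios given above differed between the same arrays, and their part was not tested.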
